A study of Mus musculus with 310 samples.

Results

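Ly6a, Ly6c1, Tgfbi, Fgfbp1 and Sema3c are 5 genes that the study lists among the markers of its Transition Cluster, a cell cluster that it describes in young skin. They were taken by symbol from the table of estimated read counts, where they are 5 of 14068 genes, and were followed gene by gene in 310 single cells of aged mouse tail skin. The marker list was made by the study on cells of young mice, none of which is analysed here, and these 5 were picked from it with earlier results of the present cells known.

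The study asked whether the primed state of wounded epidermis lasts with age, and profiled Lrig1 GL (genetic labelling) cells of repaired and age-control skin. All cells came from mice with the alleles Lrig1-EGFP-ires-CreERT2 and Rosa26-fl/STOP/fl-tdTomato on a mixed CBA and C57BL/6 background, given a single dose of hydroxytamoxifen on the tail skin. The Cre is driven by Lrig1, a gene of junctional zone stem cells in the upper hair follicle. So tdTomato marks cells that expressed Lrig1 at labelling together with their progeny. The study also points to Lrig1 GL fibroblasts in its images of skin. Labelled cells of the epidermis were sorted on tdTomato, 1 to a well, with no gate on Sca-1 (the Ly6a protein) stated for them. They were sequenced by Smart-seq2, which copies polyadenylated RNA along its length and has no molecular identifiers.

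The groups are named 38w (145 cells: RepI, 70 cells, and RepL, 75) and 38wUW (165 cells: RepM, 82, and RepN, 83), where 38w is the time given in the labels, which do not say from when it counts and differ in number from the weeks in the study's text. The labels do not spell out UW or say which group was wounded, so every difference is written as 38w against 38wUW and carries no direction towards or away from repair. The labels do not say how many mice gave a replicate. RepI lay on plates C114 (53 cells) and C118 (17 cells), and RepL, RepM and RepN on C119, C128 and C129. With 2 replicates a group, p-values measure only the spread between these 4 samples, which may be technical.

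Ly6a (also called Sca-1) and Ly6c1 encode small proteins of the Ly6 family, held on the outer cell membrane by a lipid anchor. Ly6a marks the infundibulum and the basal interfollicular epidermis in mouse skin, and Ly6c1 is best known from monocytes and endothelial cells. Tgfbi, Fgfbp1 and Sema3c are secreted. Tgfbi is a fasciclin-domain matrix protein that binds collagens and integrins and is induced by TGF-beta, Fgfbp1 frees fibroblast growth factors from the matrix and carries them to their receptors, and Sema3c is a class 3 semaphorin, a guidance cue read by neuropilins and plexins.

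In the GENCODE vM21 annotation of GRCm38, which is close to but not the Ensembl release that the study mapped to, all 5 are protein-coding. Ly6a (chr15:74994877-74998031) and Ly6c1 (chr15:75044018-75048830) lie near each other on the minus strand of chromosome 15. Tgfbi lies at chr13:56609523-56639562 on the plus strand, Fgfbp1 at chr5:43978858-43981779 on the minus strand and Sema3c at chr5:17574281-17730268 on the plus strand. The union of their coding transcripts' exons spans 1004 bases for Ly6a, 1547 for Ly6c1, 2714 for Tgfbi, 2263 for Fgfbp1 and 5491 for Sema3c.

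The first 75 coding bases of Ly6a, Ly6c1 and the neighbouring family member Ly6c2 are shown because a read was 75 bases long and these genes are alike over such a length. Capitals mark the 6 positions at which the 3 genes are not all the same.
Ly6a: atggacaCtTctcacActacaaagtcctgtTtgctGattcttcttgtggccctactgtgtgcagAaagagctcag
Ly6c1: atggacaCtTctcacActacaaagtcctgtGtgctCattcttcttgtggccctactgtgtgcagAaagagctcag
Ly6c2: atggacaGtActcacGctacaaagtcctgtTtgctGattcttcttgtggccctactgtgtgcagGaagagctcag
The Ly6a bases come from chr15:74997535-74997604 and chr15:74996564-74996568, the Ly6c1 bases from chr15:75048442-75048511 and chr15:75047465-75047469, and the Ly6c2 bases from chr15:75111598-75111667 and chr15:75110623-75110627, all on the minus strand. Over this stretch Ly6a and Ly6c1 differ at 2 positions, and Ly6c1 and Ly6c2 at 6.

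The bases shown differ between the genes, but a read can come from another stretch that they share. Of the 1764 distinct stretches of 75 bases in annotated Ly6c1 transcripts, read on either strand, 336 (19.0%) were also found in another gene, 259 of them in Ly6c2 and 77 in Ly6a. Of the 1311 stretches of Ly6a, 83 (6.33%) were shared, whereas Tgfbi, Fgfbp1 and Sema3c shared 0. The deposited values carry the trace of divided reads. A value that is not whole was given for Ly6a in 33 cells (26.4% of the cells with a read) and for Ly6c1 in 29 (42.0%), against 6 for Tgfbi, 3 for Sema3c and 0 for Fgfbp1. In 28 cells both Ly6a and Ly6c1 were not whole, 25 of them on plate C114, and in 19 of the 28 the sum of the 2 genes was whole to within 0.01. The split of reads between Ly6a and Ly6c1 is thus uncertain. Ly6c2 itself was low, at 3.3 CPM (reads of the gene scaled to the plate's total and counted per 1e6 reads) on C114 and 0.0 to 0.6 CPM on the other plates.

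Plate C114 stood apart from the other 4, including C118 of the same replicate. Median reads per cell were 44616 to 122006 by plate. The median cell gave 31.8% of its reads to ribosomal protein genes on C114, against 3.60% to 6.80% elsewhere. Krt14, a basal keratin, stood at 23571 CPM on C114 and at 824.5 to 4626 CPM elsewhere. Keratinocyte identity was checked with markers of other cell types. Of the 3 endothelial markers in the table, Pecam1 had reads in every one of the 310 cells, whereas Kdr stayed at or below 0.58 CPM on every plate. Pecam1 stood at 1168 CPM on C114, 1710 on C118, 8773 on C119, 7673 on C128 and 2640 on C129. It thus lay above Krt14 on every plate but C114, and the source of its reads was not tested. The 5 fibroblast markers in the table summed to 4.07 to 75.3 CPM by plate, of which Dcn gave 74.6 CPM on C114 while Col1a1, Col1a2 and Pdgfra were at 0 there. The 2 haematopoietic markers in the table summed to 0 to 7.56 CPM, with Ptprc at 0 on C114, and the 2 melanocyte markers to 5.26 to 15.1 CPM. Krt14 or Krt5 was found in every cell among those that together held 50% of each member's reads (9, 4, 21, 14 and 4 cells for Ly6a, Ly6c1, Tgfbi, Fgfbp1 and Sema3c). This sets them little apart, since Krt14 alone had reads in 51 of 53 cells on C114 and 13 of 17 on C118. On C119, C128 and C129 it had reads in 68 of 75, 74 of 82 and 73 of 83. At least 1 fibroblast marker was also found in 2, 1, 7, 3 and 3 of the cells holding 50%, in the same gene order, with up to 331 reads in a cell.

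Scaled by exon length, Ly6a was the highest of the 5 on average, at 208 ± 257 CPM per kilobase of exon (SD, n = 4 replicates). Its mean was carried by RepI. Fgfbp1 followed at 95.8 ± 48.4, Tgfbi at 86.2 ± 39.0, Ly6c1 at 40.5 ± 50.3 and Sema3c at 16.1 ± 6.32. Each neighbouring pair in this order differed by less than the larger of its SDs, and among the single replicates the order changed, with Ly6a at 590.9 in RepI but at 34.8 in RepM, below Tgfbi (38.9) and Fgfbp1 (52.8) of the same replicate.

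**Figure D1:**
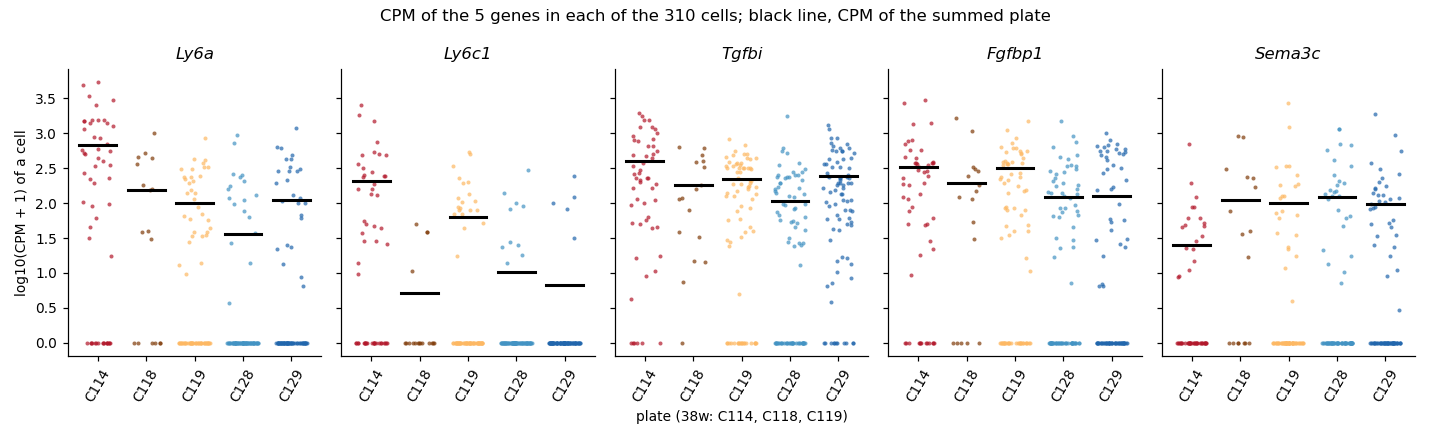
Level of each of the 5 genes in each of the 310 cells, as log10(CPM + 1) on the y axis, by plate on the x axis (C114, C118 and C119 are 38w, C128 and C129 are 38wUW). Each point is a cell and the black line is the CPM of the plate's summed reads, which for Ly6a is highest on C114 (688 CPM) and for Sema3c lowest there (23.7 CPM).

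Transcripts of the 5 genes were unevenly spread over cells, as the plot of single cells shows. Tgfbi had a read in 238 of 310 cells, Fgfbp1 in 176, Ly6a in 125, Sema3c in 113 and Ly6c1 in 69. Only 4 cells held 50% of all Ly6c1 reads, 3 of them on C114, and the highest of these held 23.3%. Sema3c was as uneven, with 4 cells holding 50%, of which 2 lay on C129, 1 on C128, 1 on C119 and 0 on C114. The same share took 9 cells for Ly6a (8 on C114 and 1 on C129), 14 for Fgfbp1 and 21 for Tgfbi. A replicate's summed level can thus rest on few cells. The highest cell gave 65.5% of the Sema3c reads of RepM and 49.1% of those of RepL.

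Ly6a, the Sca-1 gene, stood at 688 CPM on plate C114, 152 on C118, 97.9 on C119, 34.9 on C128 and 111 on C129. C114 was far above the rest, and the other 38w plates and C129 lay close together. By replicate the raw levels were 593 and 97.9 CPM (RepI and RepL) against 34.9 and 111 CPM (RepM and RepN), so that the groups overlapped, with RepL below RepN. After scaling by TMM factors (edgeR's correction for differences in RNA composition, 0.906 to 1.10 here) the values were 656, 106, 32.4 and 101.01, and RepL lay just above RepN. Ly6a was 2.51 ± 1.05 (SE) higher in 38w on the log2 scale in edgeR's quasi-likelihood test on replicate sums, and its adjusted p of 0.617 did not pass the threshold of 0.05. Without RepI the difference was 0.66, and with RepI taken from plate C118 alone it was 1.04.

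Ly6c1 stood at 209 CPM on C114, 4.1 on C118, 63.1 on C119, 9.1 on C128 and 5.8 on C129. Both plates with high values were of 38w, but C118, which shares the replicate tag of C114, was as low as the 38wUW plates and rested on only 7 reads. By replicate, the TMM-scaled levels were 191 and 68.0 CPM for 38w (RepI, RepL) and 8.48 and 5.28 CPM for 38wUW (RepM, RepN), and the groups did not overlap on either scale. The difference of 4.24 ± 1.0 (SE) on the log2 scale had the 14th lowest p of the 11760 genes tested (0.000698), but its adjusted p in edgeR's test was 0.586. DESeq2's Wald test gave a difference of 4.31 with an adjusted p of 0.0011, past the threshold. In edgeR the difference of Ly6c1 was 3.31 without RepI, where 1.38% of all genes were called. Without RepL, where 9.4% of all genes were called, it was 4.88, and that of Ly6a was 3.36. Each of these fits leaves 1 replicate in 38w and holds no spread within that group. No call on Ly6c1 or Ly6a is therefore drawn from them.

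Tgfbi, the matrix protein, was the most widely detected of the 5 and stood at 404 CPM on C114, 180 on C118, 222 on C119, 106 on C128 and 244 on C129. In raw CPM the groups overlapped, since RepL (222) lay below RepN (244). With TMM factors RepI stood at 403, RepL at 240, RepM at 98.0 and RepN at 222, so the order of RepL and RepN turned with the scaling. The difference of 1.0 ± 0.89 (SE) was about as large as its error, with an adjusted p of 0.774 in edgeR's test.

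Fgfbp1, the carrier of fibroblast growth factors, was the most even within groups in summed reads. RepI and RepL stood at 302 and 321 CPM, RepM and RepN at 120 and 125 CPM, and the groups did not overlap with TMM factors either (334, 346, 111 and 113.5). C118 lay between the other plates at 195 CPM. The difference was 1.60 ± 0.86 (SE) on the log2 scale, with an unadjusted p of 0.083 and an adjusted p of 0.652 in edgeR's test. It stayed between 1.60 and 1.65 whichever replicate was left out. With equal weight per cell it was 1.34, and with cells thinned to 20000 reads 1.20. Averaged over single cells, the CPM of RepI and RepL lay further apart, at 328 and 203, against 123 and 145 for RepM and RepN.

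Sema3c, the semaphorin, went the other way on C114, which was the lowest plate at 23.7 CPM. C118 stood at 109, C119 at 99.3, C128 at 120 and C129 at 95.9 CPM, and these 4 plates overlapped between the groups. The difference was −0.41 ± 0.86 (SE) with an adjusted p of 0.908 in edgeR's test. Its sign turned in 4 of the alternatives, among them 0.11 without RepI and 0.20 with RepI taken from C118 alone. Without the highest cell of each replicate the levels were 33.4, 51.4, 44.2 and 59.1 CPM in RepI, RepL, RepM and RepN.

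**Figure D2:**
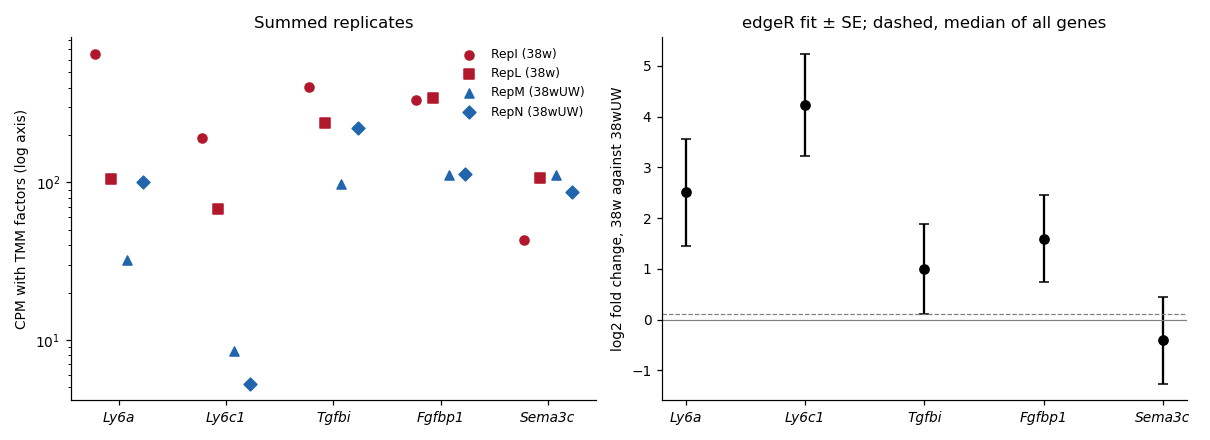
Left, CPM with TMM factors (log axis) of each gene in the 4 summed replicates, red for 38w and blue for 38wUW, with a symbol for each replicate. Right, the fitted log2 fold change of 38w against 38wUW with its SE, where 0 is the solid line and the median of all genes (0.12) the dashed line, showing Ly6c1 at 4.24 and Sema3c at −0.41.

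None of the 5 passed edgeR's test (0 of 5), beside a background of 0% of the 11760 genes tested. At an unadjusted p under 0.05, 2 of the 5 (Ly6a and Ly6c1) were higher in 38w, against 4.29% of all genes in that direction (8.07% in either). DESeq2's test called 1 of the 5, Ly6c1, beside 0.578% of all genes in either direction and 0.255% higher in 38w. With TMM factors both 38w replicates lay above both 38wUW replicates for 4 of the 5, all but Sema3c, against 17.7% of all genes. In raw CPM this held for 2 of the 5, Ly6c1 and Fgfbp1, and the share of all genes on that scale was not counted. The median gene was 0.12 higher in 38w, relative to which Ly6a was 2.39, Ly6c1 4.12, Tgfbi 0.89 and Fgfbp1 1.48 higher, and Sema3c 0.52 lower. The share of reads of ribosomal protein genes and the level of Krt14 moved with C114 as Ly6a and Ly6c1 did, and their part in these differences was not tested.

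Each plate also has a batch tag and a second, alternative tag, and C128 and C129 trade places between them. By the first tag, Ly6a was at 110 CPM on C118 and C119 together and at 111 on C129, a log2 ratio of −0.01, whereas C114 against C128 gave 4.30. By the alternative tag the 2 ratios were 1.66 and 2.63. Ly6c1 was higher in 38w within every batch by either tag, at log2 ratios of 2.44 to 5.17, but C118 alone (4.1 CPM) lay below both C128 (9.1) and C129 (5.8). Fgfbp1 was higher in every batch too, at 1.23 to 1.44. Tgfbi gave −0.20 and 1.93 by the first tag and 1.01 and 0.73 by the alternative. Sema3c gave 0.08 and −2.33 by the first tag and −0.24 and −2.01 by the alternative. One batch holds the sum of C118 and C119 for 38w and otherwise each has 1 plate per group, so these ratios have no test of their own.

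The share of cells with a read was compared at 1 depth, by thinning each cell at random to 20000 reads, which 277 of 310 cells reached. Ly6a was found in 63.2% of cells of RepI and 34.3% of RepL, against 14.1% of RepM and 21.3% of RepN. The means were 48.8 ± 20.5% in 38w and 17.7 ± 5.14% in 38wUW (SD, n = 2 each). Unlike its summed level in raw CPM, this share did not overlap between the groups, and on C118 it was 52.9%, so the higher share was not confined to C114. How many of all genes do not overlap by this measure was not counted. Without thinning the shares were 69.8%, 64.7%, 44.0%, 22% and 31.3% on C114, C118, C119, C128 and C129.

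Ly6c1 was found in 39.7% of cells of RepI, 25.7% of RepL, 10.9% of RepM and 5.33% of RepN. The means were 32.7 ± 9.89% and 8.14 ± 3.96%. Here the intervals of RepL (16.9% to 37.0%) and RepM (5.40% to 20.9%) overlapped. C118 lay at 17.6%, between C119 (25.7%) and C128, with a Wilson interval of 6.2% to 41.0% over its 17 cells. Tgfbi was found in 77.9%, 67.1%, 50% and 74.7% of cells in the same order, and RepN lay above RepL. Fgfbp1 was found in 64.7%, 52.9%, 46.9% and 34.7%, with the 38w replicates above the others but with the intervals of RepL and RepM overlapping. Sema3c was found in 29.4%, 25.7%, 29.7% and 34.7%, a spread that lay within the intervals of the single replicates.

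With 4 replicates the exact two-sided permutation test has 6 splits and cannot go below p = 0.333. It gave 0.333 for Ly6a, Ly6c1, Fgfbp1 and Sema3c, and 0.667 for Tgfbi. The intervals cover counting error of cells only.

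**Figure D3:**
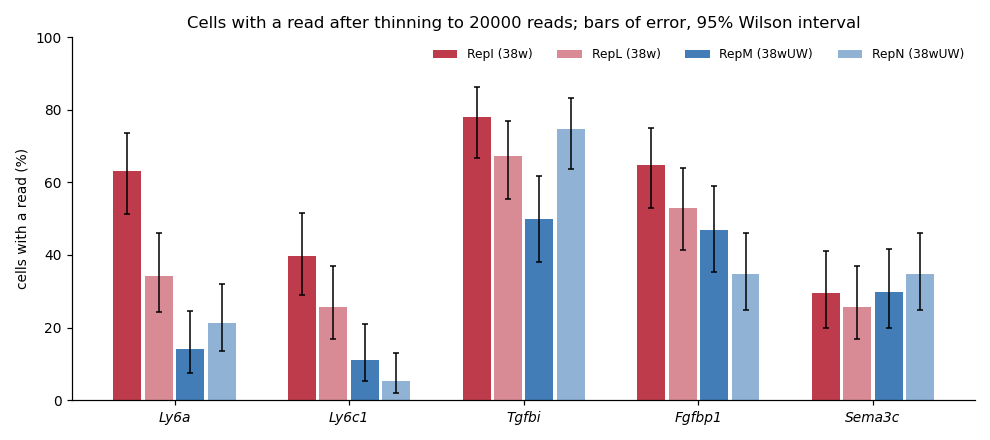
Share of cells with at least 1 read after each cell was thinned to 20000 reads (y axis, %), for each gene and replicate, red for 38w and blue for 38wUW. Error bars are 95% Wilson intervals, and Ly6a runs from 63.2% in RepI to 14.1% in RepM while Sema3c stays between 25.7% and 34.7%.

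Most cells with Ly6c1 also had Ly6a, while many cells with Ly6a lacked Ly6c1. After thinning, Ly6c1 had a read in 48 of the 92 cells with Ly6a (52.2%), from 18.8% on C129 to 70.6% on C114. Ly6a had a read in 48 of the 56 cells with Ly6c1 (85.7%) and in 44 of the 221 without it (19.9%). The difference held on every plate, with 100% against 37.0% on C114, 100% against 42.9% on C118, 72.2% against 21.2% on C119, 71.4% against 7.0% on C128 and 75.0% against 18.3% on C129. Since these genes share stretches of sequence, the count was repeated on the deposited values in the 276 cells where both genes were whole, a choice made after the data were seen. Ly6a was then found in 32 of 38 cells with Ly6c1 (84.2%) and in 59 of 238 without it (24.8%). Reads that were divided and happened to come out whole remain possible there.

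The other pairs were less tightly linked. Tgfbi was found in 76 of 92 cells with Ly6a (82.6%) and 112 of 185 without it (60.5%), and in 69 of 83 cells with Sema3c (83.1%) against 61.3% of the 194 without it. Fgfbp1 was found in 63 of 92 cells with Ly6a (68.5%) against 74 of 185 without it (40%). These shares are pooled over plates, and single plates differed. On C129 Tgfbi was found in 68.8% of cells with Ly6a and 76.3% of those without it, and on C118 in 62.5% of cells with Sema3c and 77.8% of those without it. Fgfbp1 was nearly as frequent with Ly6a (67.6%) as without it (64.7%) on C114. Fgfbp1 and Tgfbi were nearly unrelated within plates, with a mean Spearman correlation of 0.031 over the 4 plates with at least 50 cells, and so were Fgfbp1 and Sema3c (0.024). All 5 genes together were found in 13 of 138 cells of 38w and 2 of 139 of 38wUW. Cells with 4 or 5 of them made up 35.3% on C114, 23.5% on C118, 17.1% on C119, 9.38% on C128 and 6.67% on C129, so that the 3 plates of 38w lay above both plates of 38wUW.

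**Figure D4:**
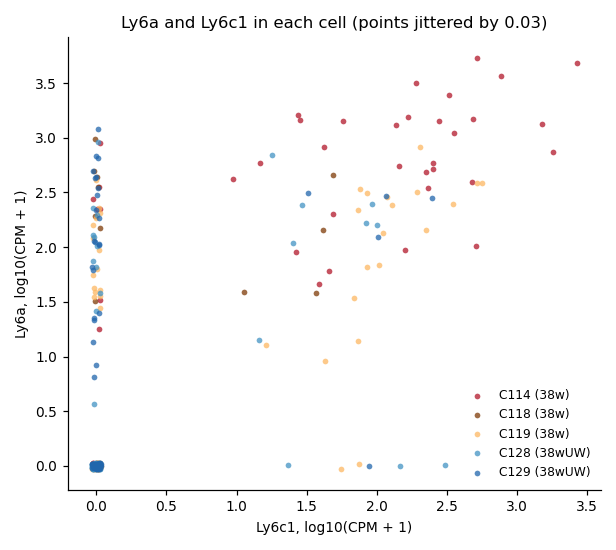
Ly6a (y axis) against Ly6c1 (x axis) in each of the 310 cells, both as log10(CPM + 1), with colours for the plates and points slightly jittered. Of the 69 cells with Ly6c1, 63 also had Ly6a, and those with the highest values of both are on C114.

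The genes whose level followed each member most closely over cells were ranked by the mean Spearman correlation within the 4 plates with at least 50 cells, among 4507 genes found in at least 20% of the cells of each. These values describe cells that share a library and carry no test. For Tgfbi they were Col17a1 (0.62), Krt5 (0.56) and Slc6a6 (0.56), of which Col17a1 encodes a hemidesmosome collagen and Krt5 the keratin of basal cells. The correlation of Tgfbi with Col17a1 was 0.71, 0.61, 0.67 and 0.50 on C114, C119, C128 and C129. For Ly6a they were Fth1 (0.43), the ferritin heavy chain, the transcription factor Maf (0.42) and Mettl7a1 (0.40). For Ly6c1 they were Ly6a (0.54), Fam162a (0.41) and Mettl7a1 (0.40). For Sema3c they were Itgb1 (0.37), the integrin beta 1 chain of basal cells, Cdca7l (0.37) and Tgfbi itself (0.33). Fgfbp1 had the weakest likeness, with Ly6d (0.31), a Ly6 family gene of the upper epidermis, Timm23 (0.28) and Psat1 (0.28).

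Each cell was placed in 1 of 7 classes by the marker genes with the highest mean z-score. These are ranges of a score and not cell types, and 28 of 310 cells lay within 0.1 of the next score. The basal score was highest in 82 cells, and it was in these that Tgfbi and Ly6c1 were most often found. Tgfbi had a read in 80 of the 82 (97.6%) and Ly6c1 in 43 (52.4%). Ly6a had one in 58 (70.7%), next to 22 of 31 cells (71.0%) with the highest tail scale score. In cells with the highest infundibular and duct score, which rests on genes of differentiated upper follicle cells, the same genes were low. There Ly6a was found in 5 of 55 cells (9.09%), Tgfbi in 23 (41.8%) and Ly6c1 in 0 of 55, which allows a share of up to 5.45%.

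Ly6a averaged 404 ± 507 CPM in cells with the highest basal score (SD over the 4 replicates), ahead of 228 ± 255 for the interfollicular differentiated score and 181 ± 113 for tail scale. Then came 66.9 ± 48.1 for the junctional zone, 59.1 ± 84.2 for the bulge, 20.8 ± 27.6 for sebocytes and 6.91 ± 8.47 for the infundibular and duct score. Neighbours in this order differed by less than the larger of their SDs, except tail scale and the junctional zone, whose difference was about as large as it. Within the basal class Ly6a stood at 1164 CPM for RepI, 176 for RepL, 154 for RepM and 123 for RepN, and at 254 CPM over the 5 such cells of C118, so RepI stood apart there too and the other 3 replicates were close to each other.

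Ly6c1 was narrower. It averaged 158 ± 185 CPM for the basal score, 63.1 ± 51.6 for interfollicular differentiated, 26.7 ± 31.8 for tail scale and 5.50 ± 11 for sebocytes, and it was found in 1 of 38 junctional zone cells and 1 of 55 bulge cells. In the basal class RepI and RepL stood at 429 and 117.98 CPM and RepM and RepN at 24.0 (12 reads) and 59.6 CPM. The 38w replicates thus lay above the others in this class without overlap, although the 5 such cells of C118 alone stood at 4.01 CPM, below RepM and RepN. The groups overlapped for interfollicular differentiated (54.3, 133, 56.3 and 8.58 CPM in RepI, RepL, RepM and RepN) and for tail scale (14.6, 19.5, 72.9 and 0 CPM).

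Tgfbi averaged 400 ± 144 CPM for the basal score, and it was high in all 4 replicates there, at 603, 359, 376 and 262 CPM in RepI, RepL, RepM and RepN. Next came 377 ± 404 CPM in the junctional zone, 347 ± 481 in tail scale, 175 ± 118.7 in the bulge, 159 ± 93.4 in interfollicular differentiated, 94.4 ± 67.6 in sebocytes and 32 ± 21.1 in infundibular and duct cells. Neighbours in this order differed by less than the larger of their SDs. The tail scale mean rested on RepN, whose value of 1068 CPM came from 2 cells. The junctional zone mean leaned on RepI, at 962 CPM from 5 cells, 4 of them on C114. RepL, RepM and RepN stood at 107, 107 and 333 CPM there.

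Fgfbp1 followed another order, highest for the interfollicular differentiated score (352 ± 217 CPM) and tail scale (342 ± 292), where it had a read in 28 of 31 cells. It averaged 214 ± 221 CPM in the junctional zone, 209 ± 121 in basal cells, 144 ± 102 in sebocytes, 124 ± 72.8 in infundibular and duct cells and 54.1 ± 64.6 in the bulge, where 7 of 55 cells had a read. Neighbours in this order, too, differed by less than the larger of their SDs. For the interfollicular differentiated score the highest replicate was RepL, at 646 CPM from 4 cells. Tail scale ran from 738 CPM in RepI to 36.0 CPM in RepN, which had 3 reads in 2 cells. With scores scaled within plates the junctional zone (298 CPM) lay between tail scale (352) and the interfollicular differentiated score (287).

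Sema3c was highest for the junctional zone (149 ± 132 CPM) and the bulge (127 ± 106), ahead of the basal class (88.7 ± 61.0) and sebocytes (57.2 ± 45.0). It was low in all 3 differentiated classes, at 12.3 ± 21.9 CPM for interfollicular differentiated, 6.65 ± 5.79 for tail scale and 4.99 ± 6.38 for infundibular and duct cells. Neighbours among the first 4 differed by less than the larger of their SDs. The bulge mean leaned on RepM (276 CPM, 492 reads), where 1 cell gave 429 reads. The junctional zone mean leaned on RepN (331 CPM, 841 reads), where 1 cell gave 491 reads. With scores scaled within plates the order turned, with 172 CPM in the basal class, 141 in the junctional zone and 67.6 in the bulge. The RepM cell with 429 reads then counted as basal.

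**Figure D5:**
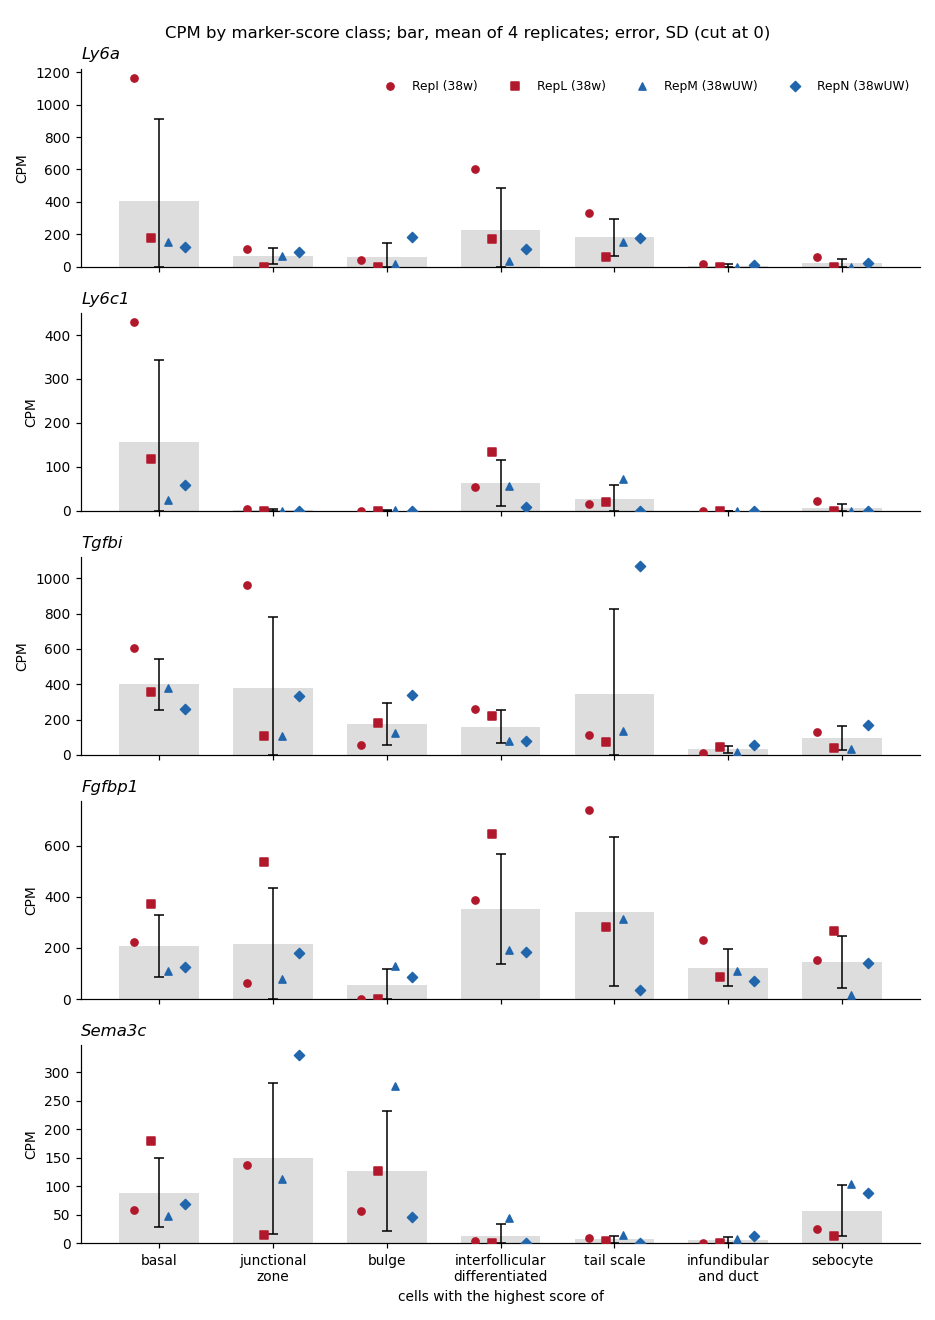
CPM of each gene (y axis) in the cells with the highest score of each of the 7 marker lists (x axis). Bars are means of the 4 replicates with SD, cut at 0, and points are replicates (red 38w, blue 38wUW), showing Ly6a at 1164 CPM in basal cells of RepI and Sema3c low in the 3 differentiated classes.

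The make-up of the replicates by this score differed between the groups. The basal score was highest in 40% of cells of both RepI and RepL, against 15.9% of RepM and 13.3% of RepN. The junctional zone score was highest in 7.14%, 4%, 18.3% and 18.1% of cells, and the bulge score in 4.29%, 13.3%, 19.5% and 31.3%. The tail scale score was highest in 17.1% and 20% against 2.44% and 2.41%. The score reads markers such as Krt14 whose own level differs between plates, and the part of this make-up in the differences of the 5 genes was not tested. In sums over cells, fewer cells of a kind and less RNA per cell cannot be told apart.

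The genes around the 5 members were described from lists, each without the members. For comparison, 4.29% of all genes were higher in 38w at an unadjusted p under 0.05 in edgeR's test, and 8.07% passed it in either direction. Of the Ly6 and uPAR family 8 genes were tested, of which 0 were called by edgeR, 1 was higher in 38w at an unadjusted p under 0.05 and 0 were lower, with a median log2 fold change of 1.12 beside 0.12 for all genes. The one was Ly6d, at 4588, 422, 462 and 151 CPM for RepI, RepL, RepM and RepN, which again rested on RepI. Ly6g6c stood at 888, 72.2, 238 and 86.8 CPM, and Ly6e at 121, 45.7, 38.2 and 29.6. In this list 3 of the 8 genes had both 38w replicates above both 38wUW replicates (37.5%, beside 17.7% of all genes). For 2 they lay below (25%, beside 20.8%).

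Of 19 tested genes of TGF-beta signalling 0 were called, 2 were higher at an unadjusted p under 0.05 and 0 lower, and their median was −0.33. Both 38w replicates lay below both 38wUW replicates for 9 of the 19 (47.4%, beside 20.8% of all genes) and above for 2 (10.5%, beside 17.7%). The 2 past the unadjusted p were Ltbp3, which stores latent TGF-beta in the matrix (2.21 ± 0.92, SE), and the signal transducer Smad3 (2.91 ± 1.27), both with an adjusted p of 0.617 in edgeR's test. The list's most abundant genes were Tgfbr2, a receptor chain, at 38.0, 292, 121 and 58.3 CPM in RepI, RepL, RepM and RepN, the repressor Skil at 14.6, 66.0, 89.5 and 120 CPM, and the ligand Tgfb2 at 16, 98.9, 74.2 and 67.6 CPM. Tgfbr2 overlapped between the groups, and Skil was lower in both 38w replicates.

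Of the 10 tested fasciclin proteins and integrins 0 were called, 2 were higher at an unadjusted p under 0.05 (Stab1 and Itgb5) and 0 lower, and their median was 0.87. Postn, the fasciclin relative of Tgfbi, stood at 66.0, 771, 695 and 1079 CPM and Itga6 at 91.1, 362, 171 and 201, lowest in RepI where Tgfbi was highest. Itgb1 stood at 65.0, 191, 130 and 280 CPM. In this list 4 of the 10 genes had both 38w replicates above both 38wUW replicates (40%, beside 17.7% of all genes). For 0 they lay below (beside 20.8%).

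Of 9 tested FGF ligands, receptors and carriers 0 were called, and at an unadjusted p under 0.05 0 were higher and 1, Fgf1, was lower (−2.38 ± 1.11, SE), with a median of 0.39. The heparan sulphate carriers Sdc4 (178, 188, 332 and 300 CPM) and Sdc1 (218, 180, 177 and 195) and the keratinocyte FGF receptor Fgfr2 (87.7, 133, 69.1 and 73.1) had adjusted p of 0.782 or more in edgeR's test. Of 10 tested class 3 semaphorins and receptors 0 were called, and at an unadjusted p under 0.05 0 were higher and 2 lower, with a median of 0.47. These were Sema3e (7.61, 17.2, 50.4 and 92.8 CPM) and the receptor Nrp2 (4.63, 3.96, 10.8 and 60.9 CPM), with both 38w replicates below both 38wUW replicates. Sema3d and the receptor Plxna4 overlapped between the groups, at 9.46, 70.3, 17.2 and 36.6 CPM and 6.28, 112, 47.6 and 15 CPM. The 38w replicates lay above both 38wUW replicates for 3 of the 9 FGF genes and below for 3 (33.3% each). For the 10 semaphorins and receptors these counts were 1 (10%) and 3 (30%). Of all genes, 17.7% lay above and 20.8% below.

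Of the other 95 listed Transition Cluster markers 93 were tested and 0 called by edgeR, with 12 higher and 1 lower at an unadjusted p under 0.05. Among all genes 4.29% were higher at that p, and 8.07% passed it in either direction. Both 38w replicates lay above both 38wUW replicates for 28 of the 93 (30.1%, beside 17.7% of all genes) and below for 7 (7.53%, beside 20.8%), and the median was 0.65. DESeq2's test called 1 of them, Krt14, besides Ly6c1. No list was tested as a set.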

How the data were processed

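Per the labels and the study's methods, the authors mapped 75-base single-end reads with Salmon 0.13.1 to the Ensembl mouse transcriptome (mm10/GRCm38) and deposited estimated counts per gene and cell, unscaled, of which 3.60% were not whole. The members and lists were chosen with earlier results of these data known. Rounded sums of counts per replicate went into edgeR 4.0.16 under R 4.3.3 (quasi-likelihood F-test, TMM, filterByExpr, Benjamini-Hochberg over 11760 genes, threshold 0.05), with DESeq2 1.42.0 as an alternative. The study tests cells within clusters; cells were not taken as replicates here. Shares of cells were taken after thinning to 20000 reads (7 cells of 38w and 26 of 38wUW were shallower). CPM, likeness and marker-score classes are descriptions.

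Replicate sums held 9725117 (RepI), 5801053 (RepL), 5472070 (RepM) and 12946742 reads (RepN), and cells 11711 to 721564. Without molecular identifiers, intervals and zero limits (3 counts) cover counting error only. Genes named were the members, 3 most alike genes each, and of each list those past the test, otherwise the 3 most abundant; list genes at an unadjusted p under 0.05 and Krt14 were named after their values were seen. Names of 15 cells carry an unexplained suffix (13 IDTILL on C114, 2 MBULK); 11 wells of C114 are named by 2 cells each. None of these 11 pairs was identical, and their log2 CPM correlated at a median r of 0.516, beside 0.444 for the other 1367 pairs of C114. All were kept. Doublets were not called, as each well was meant to hold 1 cell. Positions, exon lengths and sequences are from GENCODE vM21. The batch tag pairs C114 with C128 and C118 and C119 with C129. The deviations of these pairs correlated at 0.167 across genes, which with 2 pairs does not settle a pairing.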

Additional observations from a re-analysis of the deposited data

How the results depend on the processing

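Between 38w and 38wUW edgeR called 0 genes, as in 10 of the alternatives, but DESeq2 called 68, no filter on low counts 1, leaving out RepI 169 and leaving out RepL 1215 (range without 1 replicate 0 to 1215), the batch tag as a replicate block with plates as units 1, and the alternative tag as a replicate block 4; the call without the filter and under the first tag was Krt84, and those under the alternative tag were Krt84, Krt36, Skint9 and Adamts1. The log2 differences under the replicate block were 1.92 and 2.50 (Ly6a), 3.65 and 3.41 (Ly6c1), 0.91 and 1.17 (Tgfbi), 1.55 and 1.55 (Fgfbp1) and −0.65 and −0.67 (Sema3c). Ly6c1 passed the threshold in DESeq2 (4.31). Leaving out RepI or RepL leaves 1 replicate in 38w. Those fits, and the numbers of genes given for them above, hold no spread within that group, so no call is drawn from them. Leaving out 1 replicate gave 0.66 to 3.55 for Ly6a, 3.31 to 4.88 for Ly6c1, 0.54 to 1.71 for Tgfbi, 1.60 to 1.65 for Fgfbp1 and −1.14 to 0.11 for Sema3c. Sema3c turned sign without RepI (0.11), with equal weight per cell (0.23), thinned to 20000 reads (0.30) and with RepI from C118 only (0.20). The cause was not tested. With RepI from C118 only, Ly6c1 was 2.40, Tgfbi 0.46 and Fgfbp1 1.32, none past the threshold. In alternatives chosen after the data were seen, leaving out each replicate's highest cell gave 2.95 (Ly6a), 4.26 (Ly6c1), 1.01 (Tgfbi), 1.57 (Fgfbp1) and −0.04 (Sema3c), and adding up Ly6a, Ly6c1 and Ly6c2 gave 2.79.

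For shares of cells, in percentage points, leaving out 1 replicate gave 16.6 to 45.5 (Ly6a), 17.6 to 31.6 (Ly6c1), −2.12 to 22.5 (Tgfbi), 11.9 to 24.1 (Fgfbp1) and −7.10 to −2.12 (Sema3c). Tgfbi turned without RepM (−2.12), and Sema3c when thinned to 40000 reads (0.86) or with RepI from C118 only (4.21). The other 52 share results kept their direction. With marker scores scaled within plates, 253 of 310 cells kept their class, 29 of 35 class levels moved by less than 1 SD, and 6 moved further, to 172 CPM for Sema3c in basal cells, 16.1 for Ly6c1 in bulge cells, 165 and 6.96 for Ly6a and Ly6c1 in the junctional zone, and 87.6 and 28.2 for Ly6a and Ly6c1 in sebocytes. The low reads of Ly6c1 outside C114 and C119 (7 to 75 a plate) limit what can be said of it there.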
